A study of Mus musculus with 7 samples.

Results

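The general transcription factor TFIID is a complex of the TATA binding protein and its associated factors (TAFs), and the 10 genes described here, *Tbp*, *Taf1*, *Taf2*, *Taf3*, *Taf5*, *Taf6*, *Taf7*, *Taf8*, *Taf10* and *Taf12*, encode 10 of its subunits. They were chosen by gene symbol, as 10 of the 19938 genes measured, after *Taf2* had been seen to be among the genes with the largest increase in the same arrays. The values of the members between the treatments are therefore given as a description, without a p-value. The question was whether *Taf2* increased alone within the complex.

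The cells were primary hepatocytes of C57BL/6J mice, isolated with collagenase and a Percoll gradient meant to separate them from other liver cells. They were transfected with 1 µg of a mimic of the mouse miRNA miR-709 (4 arrays, A, B, C and D) or with the same amount of the control Cel-239b, a miRNA of the worm (3 arrays, B, C and D), and RNA was taken 24 h later. The control cells were thus transfected too, and untreated cells were not analysed here. Each RNA was hybridized to an Affymetrix Mouse Gene 1.0 ST array, and the values are log2 signals, where a difference of 1 is a 2-fold change. The sources do not say whether the replicates came from separate mice or isolations, so the errors and p-values cover the spread between these arrays, whose number limits the precision. All arrays were alike in scale (medians of 5.04 to 5.07), and pairs correlated across genes at 0.997 to 0.998 within a treatment and 0.995 to 0.997 between them.

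TFIID recognizes core promoters and starts the assembly of RNA polymerase II and the other general factors on them. TBP binds and bends the TATA box, while the TAFs contact the initiator, elements downstream of the start and modified histones, and form the scaffold of the complex. TAF2 is an aminopeptidase-like subunit that contacts the initiator together with TAF1, and in human cells it enters the complex by way of TAF8 and TAF10. Some TAFs are not specific to TFIID: TAF10 and TAF12 are also subunits of the coactivator SAGA, and TBP serves all 3 nuclear RNA polymerases.

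Windows of 250 bases before to 50 bases after the RefSeq start site (mouse build GRCm38.p6) were read for 8 of the 10 genes. No window was available for *Taf2* or *Taf7*, so the promoter of *Taf2* was not examined. The windows of *Tbp*, *Taf1* and *Taf5* are shown, because these were the members other than *Taf2* whose miR-709 and Cel-239b arrays did not overlap. They lie at chr17:15499638-15499937, chrX:101532485-101532784 and chr19:47067498-47067797, all on the plus strand, and are written 5′ to 3′. Capitals mark CCGGAA (core of the ETS factors' motif), AAGATGGC (core of the YY1 motif) and TATAAA (the TATA box), on either strand.
Tbp: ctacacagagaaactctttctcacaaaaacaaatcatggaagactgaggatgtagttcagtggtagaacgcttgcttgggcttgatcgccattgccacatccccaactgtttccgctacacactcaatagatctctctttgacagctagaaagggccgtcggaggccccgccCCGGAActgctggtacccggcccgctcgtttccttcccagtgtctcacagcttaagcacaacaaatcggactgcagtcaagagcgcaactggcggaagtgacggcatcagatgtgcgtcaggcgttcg
Taf1: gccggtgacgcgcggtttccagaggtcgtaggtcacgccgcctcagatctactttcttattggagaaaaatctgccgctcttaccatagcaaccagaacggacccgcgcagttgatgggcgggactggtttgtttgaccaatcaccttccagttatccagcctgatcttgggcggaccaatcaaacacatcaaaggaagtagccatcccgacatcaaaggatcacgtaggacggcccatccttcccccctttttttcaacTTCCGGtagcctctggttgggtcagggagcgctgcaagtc
Taf5: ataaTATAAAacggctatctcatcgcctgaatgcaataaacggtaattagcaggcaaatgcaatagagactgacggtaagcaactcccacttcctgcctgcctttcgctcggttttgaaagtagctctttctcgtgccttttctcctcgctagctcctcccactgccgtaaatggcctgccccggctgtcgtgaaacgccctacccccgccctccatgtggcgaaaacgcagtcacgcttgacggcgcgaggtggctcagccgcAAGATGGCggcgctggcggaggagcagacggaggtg

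CCGGAA or its reverse TTCCGG stood 78 bases before the start of *Tbp* and began at base 11 of the *Taf1* transcript. AAGATGGC began at base 15 of the *Taf5* transcript, and likewise at base 17 in *Taf6* and base 20 in *Taf8*. Of the 8 genes with a window, 4 held CCGGAA (*Tbp*, *Taf1*, *Taf3* and *Taf12*, against 14.9% of all 32851 mouse windows) and 3 held AAGATGGC (*Taf5*, *Taf6* and *Taf8*, against 2.75%). None of these windows held both motifs. The Sp1 core GGGCGG was in the windows of 7 of the 8 genes (35.7% of all windows), and CCAAT was in that of *Taf1* only (37.4% of all windows). The TATA box, the element that TBP is named for, occurred in 2 of the 8 genes, 246 bases before the start of *Taf5* and, reversed, 92 bases before that of *Taf6* (13.6% of all windows). On the gene's own strand and between 40 and 20 bases before the start, TATAAA was in 0 of the 9 windows of these genes (*Taf6* has 2 starts) and in 1.91% of all windows. These matches describe letters in a window and are not binding sites, and GGGCGG was the only motif searched that all 3 genes shown held.

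*Taf2* was the member that differed most between the treatments. Its log2 signal was 8.39, 8.30, 8.28 and 8.40 on the miR-709 arrays A to D, against 7.43, 7.14 and 7.38 on the Cel-239b arrays B to D. Every miR-709 array was well above every control array, with a gap of 0.85 between the nearest pair. The means were 8.34 ± 0.06 (SD, n = 4) with miR-709 and 7.32 ± 0.16 (SD, n = 3) with Cel-239b, a difference of 1.03 (SE 0.08, 95% interval 0.85 to 1.20) or 2.04-fold. This was the 4th largest increase of the 19938 genes, after *Cyp2c29* (2.48), *A1cf* (1.04) and *Hgd* (1.03), and just ahead of *Ehhadh* (1.00). Except for the RNA-editing cofactor *A1cf*, these are genes of liver metabolism, for xenobiotics, tyrosine and peroxisomal fatty acids. *Taf2* is represented by a single probe set on the array, so its transcript forms are not resolved. In total RNA of a culture, more RNA per cell and a change in the kinds of cells present cannot be told apart.

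**Figure D1:**
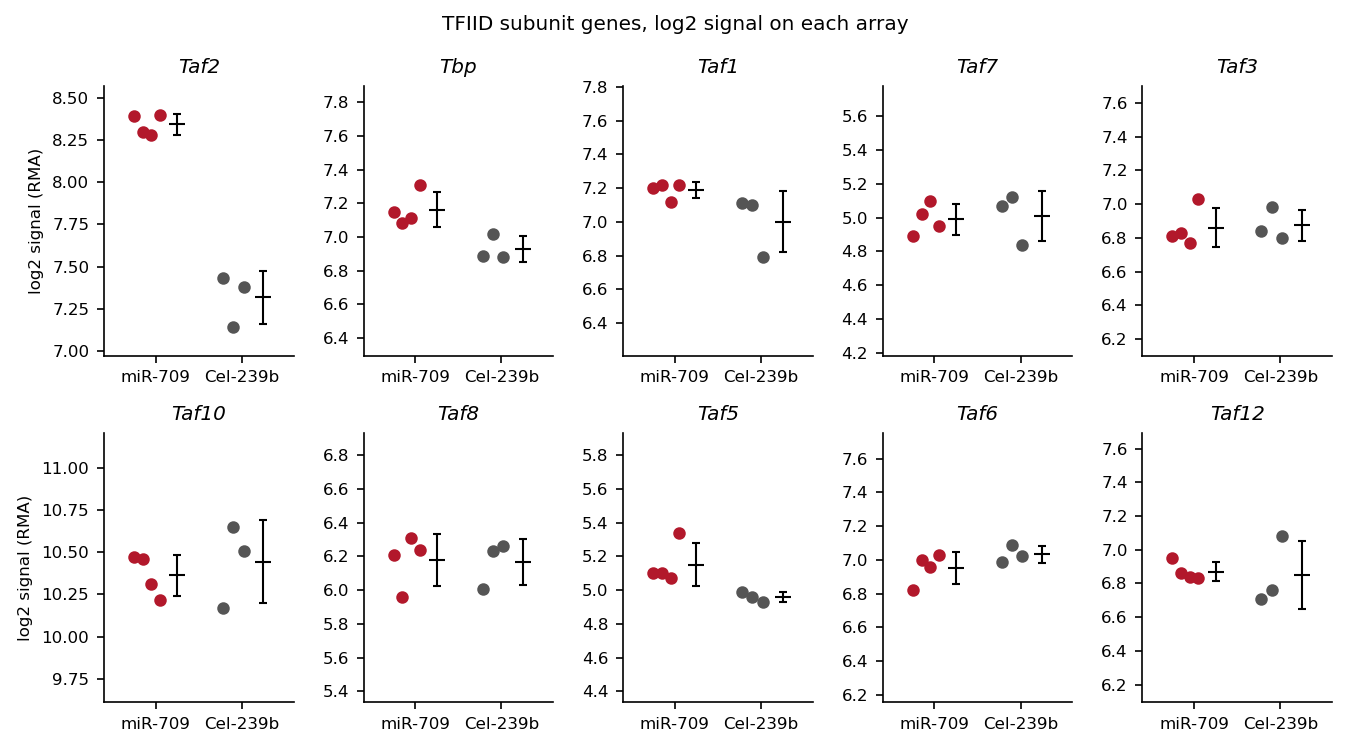
Log2 signal (RMA, y axis) of the 10 TFIID subunit genes on each array, with the miR-709 arrays in red on the left and the Cel-239b arrays in grey on the right of each panel; the bar beside each group is its mean ± SD (n = 4 and n = 3), and all panels span the same height. The 4 miR-709 arrays of *Taf2* lie at 8.28 to 8.40, above 7.14 to 7.43 on the control arrays, whereas *Tbp*, *Taf1* and *Taf5* are separated by 0.01 to 0.08 and the other 6 genes overlap.

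*Tbp* encodes the subunit that binds TATA. Its log2 signal was 7.15, 7.08, 7.11 and 7.31 with miR-709, against 6.89, 7.02 and 6.88 with Cel-239b. The arrays did not overlap, but the gap was 0.06, and array D of miR-709 stood highest. The difference was 0.23 (SE 0.07, 95% interval 0.07 to 0.40), or 1.18-fold, and 1162 genes (5.83% of those measured) had a difference at least as high. *Tbp* was also the gene to which the study scaled its quantitative PCR, which is separate from the arrays.

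*Taf1* encodes the largest subunit, which binds the initiator with TAF2 and carries bromodomains that read acetylated histones. Log2 signals were 7.20, 7.22, 7.12 and 7.22 with miR-709 and 7.11, 7.10 and 6.79 with Cel-239b. The groups were separated by 0.01, and Cel-239b array D lay apart below the other control arrays. The difference was 0.19 (SE 0.08, 95% interval 0.00 to 0.38), and without Cel-239b array D it was 0.09. *Taf7*, whose product holds the acetyltransferase activity of TAF1 in check, had 4.89, 5.02, 5.10 and 4.95 with miR-709, against 5.07, 5.12 and 4.84 with Cel-239b, a difference of -0.02 (SE 0.08). It was a dim signal, close to the array median of 5.04 to 5.07, and the groups overlapped.

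*Taf8* and *Taf10* encode the histone-fold pair through which TAF2 enters TFIID. *Taf8* had log2 signals of 6.21, 5.96, 6.31 and 6.24 with miR-709, against 6.01, 6.23 and 6.26 with Cel-239b. The difference was 0.01 (SE 0.10, 95% interval -0.20 to 0.23), and each group held a low array at about 6. *Taf10* had 10.47, 10.46, 10.31 and 10.22 with miR-709, against 10.17, 10.65 and 10.51 with Cel-239b, a difference of -0.08 (SE 0.11, 95% interval -0.33 to 0.18). The control arrays lay on both sides of the miR-709 arrays. A second, dimmer probe set of *Taf10* gave 6.43, 6.43, 6.43 and 6.37 with miR-709 and 6.74, 6.20 and 6.60 with Cel-239b, a difference of -0.10 with the same overlap. *Taf8* and *Taf10* thus showed no separation of the groups.

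*Taf3*, whose product binds trimethylated lysine on histone H3 at active promoters and pairs with TAF10, had 6.81, 6.83, 6.77 and 7.03 with miR-709, against 6.84, 6.98 and 6.80 with Cel-239b. The groups overlapped, with a difference of -0.01 (SE 0.08).

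*Taf5*, *Taf6* and *Taf12* encode core scaffold subunits. *Taf5*, a WD40-repeat protein present in more than a single copy in the complex, had 5.10, 5.10, 5.07 and 5.34 with miR-709, against 4.99, 4.96 and 4.93 with Cel-239b. The arrays did not overlap (gap 0.08), and the difference was 0.19 (SE 0.08, 95% interval 0.02 to 0.36), although both groups were near the array median. Without miR-709 array D, which stood above the other miR-709 arrays, it was 0.13. *Taf6*, a histone-fold subunit that pairs with TAF9, had 6.82, 7.0, 6.96 and 7.03 with miR-709, against 6.99, 7.09 and 7.02 with Cel-239b, a difference of -0.08 (SE 0.07). *Taf12*, the partner of TAF4, had 6.95, 6.86, 6.84 and 6.83 with miR-709, against 6.71, 6.76 and 7.08 with Cel-239b, a difference of 0.02 (SE 0.09). In both of these genes the groups overlapped.

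Of the 10 genes, 1 (*Taf2*) passed the threshold of the test across all genes (limma, adjusted p under 0.05) as higher and 0 as lower, where 1.81% of all genes passed as higher and 1.47% as lower (3.28% in either direction). The arrays of 4 members did not overlap, all higher with miR-709 (*Taf2*, *Tbp*, *Taf1* and *Taf5*), and 0 were lower without overlap, where 7.44% of all genes were higher and 4.91% lower in this sense (12.3% together). Since the genes were picked with these arrays in view, nothing is read from either count. The 9 members other than *Taf2* had a median difference of 0.01, as had all genes (0.01, with 54.6% above 0), and ranged from -0.08 to 0.23. Of these 9, 6 lay within 0.1 of no difference. Their intervals leave room for smaller differences, with upper bounds of 0.07 (*Taf6*) to 0.40 (*Tbp*).

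The change of *Taf2* exceeded that of each other member, which follows from how the genes were chosen, and the sizes are given as a description. The excess was smallest over *Tbp* (0.79, SE 0.12), *Taf5* (0.83, SE 0.09) and *Taf1* (0.84, SE 0.14), the members that themselves leaned upwards. It was 1.01 (SE 0.15) over *Taf8* and 1.10 (SE 0.21) over *Taf10*, and largest over *Taf6* (1.11, SE 0.12). Under the 18 alternative ways of processing, including each array left out in turn, the difference was 0.94 to 1.08 for *Taf2* and 0.18 to 0.28 for *Tbp*, a spread of settings over the same arrays that led to the choice of *Taf2*. *Taf3*, *Taf7*, *Taf8*, *Taf10* and *Taf12* changed sign with the array left out and have no settled direction.

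**Figure D2:**
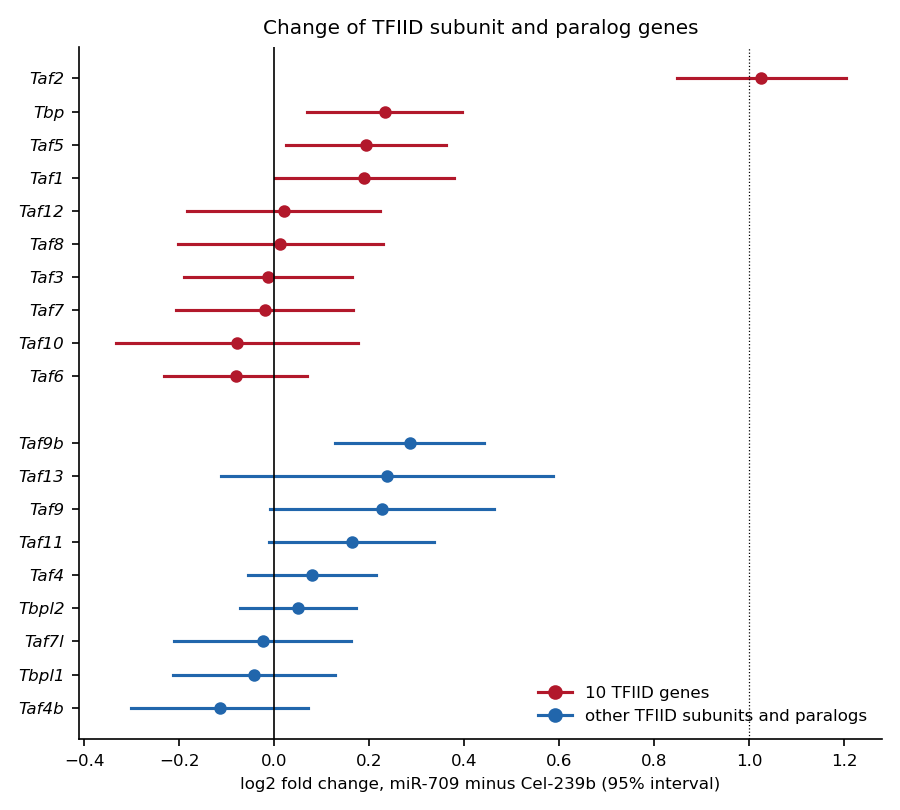
Log2 fold change, miR-709 minus Cel-239b (x axis), of the 10 TFIID genes (red) and of 9 further TFIID subunits and TBP or TAF paralogs (blue), with 95% intervals from limma; the dotted line marks a 2-fold increase. *Taf2* at 1.03 is the only gene near that line, and the other 18, each at its brightest probe set, lie between -0.12 and 0.29.

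The remaining subunits of TFIID and the paralogs that can replace subunits in certain tissues were read from a list of 9 genes. Of these, 0 passed the limma test in either direction, with 1 at an unadjusted p under 0.05 (15% of all genes were) and a median difference of 0.08, and the methods' t-test also called 0. The scaffold gene *Taf4* (difference 0.08), its paralog *Taf4b* (-0.12), *Taf11* (0.16), *Taf13* (0.24) and *Taf9* (0.23) all had overlapping arrays at their brightest probe set. A second probe set of *Taf13* did not overlap, with 6.46, 6.68, 6.35 and 6.51 with miR-709 and 6.27, 6.15 and 6.14 with Cel-239b, a difference of 0.31. Which probe set measures the gene itself could not be told for *Taf13* or for *Taf10*. *Taf9b*, a paralog of *Taf9*, had 4.70, 4.74, 4.57 and 4.65 with miR-709 against 4.32, 4.50 and 4.32 with Cel-239b. It was dim and higher without overlap, by 0.29 (SE 0.07, limma adjusted p = 0.0681). The TBP paralogs *Tbpl1* (-0.04) and *Tbpl2* (0.05) overlapped, as did the germ cell paralog *Taf7l* (-0.02), and the signals of *Tbpl2* and *Taf7l* were among the dimmest of the list. These genes were named after their values were seen.

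Other factors of transcription initiation were read from 5 further lists, whose counts stand beside 1.81% of all genes called higher and 1.47% called lower. In SAGA, the coactivator that shares TAF10 and TAF12 with TFIID, 1 of 18 genes was higher and 0 lower, with a median difference of 0.04. The gene was *Kat2b*, an acetyltransferase of histone H3, with 7.90, 7.93, 7.74 and 7.74 with miR-709 against 7.48, 7.55 and 7.43 with Cel-239b. It rose by 0.34 (SE 0.07, limma adjusted p = 0.0309), with an adjusted p of 0.0113 to 0.13 over the alternatives. The call was lost when any array other than miR-709 C was left out (0.0519 to 0.106). The paralogs that take the place of TAF5 and TAF6 in SAGA, *Taf5l* (-0.07) and *Taf6l* (0.08), overlapped.

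Among 13 factors that contain or bind TBP outside TFIID (subunits of the RNA polymerase I and III factors, the TBP-removing ATPase *Btaf1*, the repressor NC2 and the snRNA activator complex), 0 passed in either direction, 3 were at an unadjusted p under 0.05 (15% of all genes), and the median was 0.08. The methods' t-test called 0 as well. All 3 genes at an unadjusted limma p under 0.05 were lower with miR-709, whereas 9 of the 13 genes lay above 0. The 3 included *Bdp1* (-0.253) and, at its brightest probe set, *Taf1d* (-0.235), named after their values were seen. The lowest was *Snapc3* of the snRNA activator complex, named after its values were seen, with 6.93, 6.92, 6.67 and 6.66 with miR-709 against 7.35, 7.33 and 6.97 with Cel-239b (difference -0.42, limma adjusted p = 0.0917). Without Cel-239b array D, 1 gene of this list was called lower.

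Of 16 subunits of the other general factors TFIIA, TFIIB, TFIIE, TFIIF and TFIIH, 1 was higher and 0 lower (median 0.05, with 1.81% and 1.47% of all genes called). *Ccnh*, the cyclin of the TFIIH kinase that phosphorylates the tail of RNA polymerase II, had 6.98, 7.24, 7.29 and 7.36 with miR-709 against 6.89, 6.49 and 6.64 with Cel-239b. It rose by 0.54 (SE 0.11, limma adjusted p = 0.0325, 0.0114 to 0.307 over the alternatives). The call was lost without miR-709 B, C or D or Cel-239b C or D (0.0988 to 0.156).

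RNA polymerase II itself had 0 of 13 subunits called in either direction by limma, with 4 at an unadjusted p under 0.05 (15% of all genes) and a median of 0.05 (limma-trend called 1 higher and the methods' t-test 0). Without miR-709 array A 1 subunit was called higher, and without Cel-239b array D 1 was called lower. The largest subunit, *Polr2a*, named after its values were seen, had 7.44, 7.38, 7.38 and 7.40 with miR-709 against 8.43, 7.88 and 7.48 with Cel-239b. The control arrays were spread over nearly 1 on the log2 scale while those of miR-709 were tight, and the difference of -0.53 was not called (adjusted p = 0.184). *Polr2m*, next to the threshold, was higher by 0.42 (SE 0.10, adjusted p = 0.0501).

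Mediator, which joins activators to the polymerase, had 2 of 30 genes higher and 2 lower, where 1.81% and 1.47% of all genes were, with a median of 0.05. *Cdk8*, the kinase of its detachable module, had 9.47, 9.49, 9.44 and 9.52 with miR-709 against 8.94, 8.83 and 8.81 with Cel-239b, and rose by 0.62 (SE 0.06, limma adjusted p = 0.000505, 0.000132 to 0.0243 over the alternatives). *Med17*, a head subunit, had 7.71, 7.67, 7.85 and 7.72 with miR-709 against 7.30, 7.28 and 7.36 with Cel-239b, and rose by 0.42 (SE 0.06, adjusted p = 0.0061, 0.002 to 0.0729). Both were called with any array left out.

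Another head subunit, *Med18*, had 5.96, 6.12, 6.15 and 5.58 with miR-709 against 6.55, 6.45 and 6.79 with Cel-239b, and fell by 0.64 (SE 0.14, limma adjusted p = 0.0386, 0.0137 to 0.256 over the alternatives). *Med21*, a subunit of the middle module, had 7.89, 8.08, 8.07 and 8.32 with miR-709 against 9.18, 8.76 and 8.70 with Cel-239b, and fell by 0.79 (SE 0.13, adjusted p = 0.0106, 0.0033 to 0.148). The call of *Med18* was lost when any array other than miR-709 D was left out (0.0594 to 0.124), whereas that of *Med21* was kept with any array left out. The largest of these differences in size was that of *Med21*, and each list held members on both sides of no difference.

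**Figure D3:**
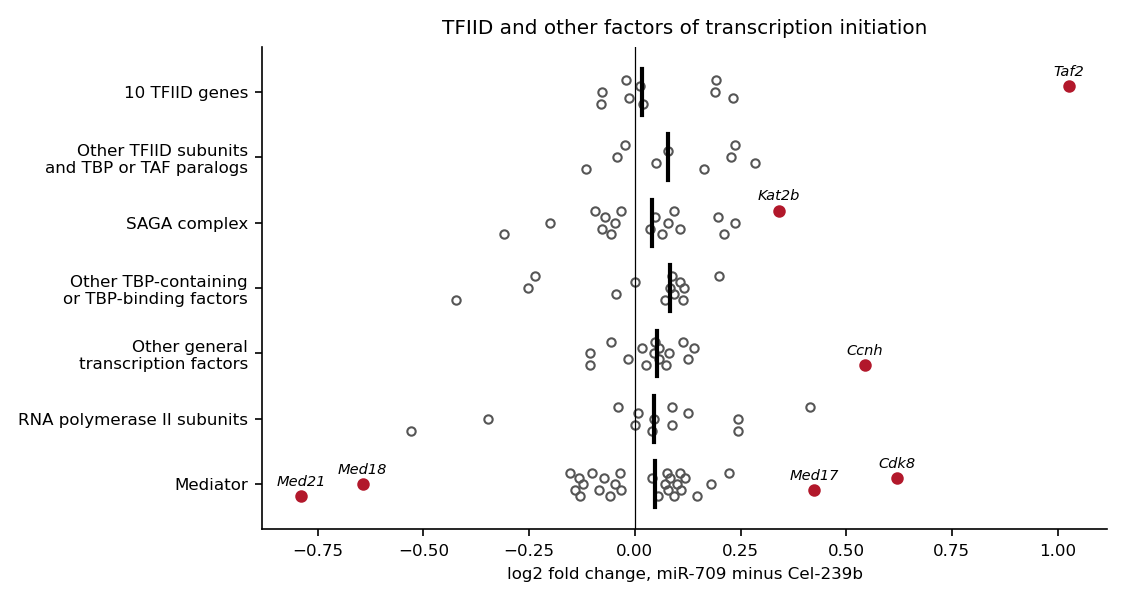
Log2 fold change, miR-709 minus Cel-239b (x axis), of each gene in the TFIID group and in 6 lists of other initiation factors (rows); filled red points passed limma at an adjusted p under 0.05, open points did not, and the black bar is the median of the row. All medians lie between 0.02 and 0.08, and *Taf2* at 1.03 lies farthest from its row.

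The genes whose profile over the 7 arrays was nearest to that of *Taf2* were found by the root mean square difference between log2 signals, each gene centred on its own mean. They were *Slc35d2* (0.088), a nucleotide sugar transporter of the Golgi, *Enpp5* (0.096), a membrane phosphodiesterase family member, *Baat* (0.102), which joins bile acids to taurine or glycine, the tetraspanin *Tspan3* (0.103), and *Slco1a4* (0.114), an uptake transporter of bile acids and other organic anions. None is a transcription factor. *Baat* had 7.77, 7.66, 7.58 and 7.57 with miR-709 against 6.92, 6.62 and 6.78 with Cel-239b, and *Slc35d2* had 8.09, 8.13, 8.14 and 8.39 against 7.26, 7.10 and 7.22. Differences of the 5 genes were 0.87 to 0.99, so each was close to a doubling, as for *Taf2*, and since the measure picks genes with that difference no test is given. Among the 10 TFIID genes described here, *Tbp* was the nearest to *Taf2* and came 1107th of all genes (0.414). *Taf5* came 1379th (0.425) and *Taf1* 1957th (0.440), and the remaining members came 9265th or later. The places of the TFIID subunits and paralogs outside these 10 genes were not read.

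**Figure D4:**
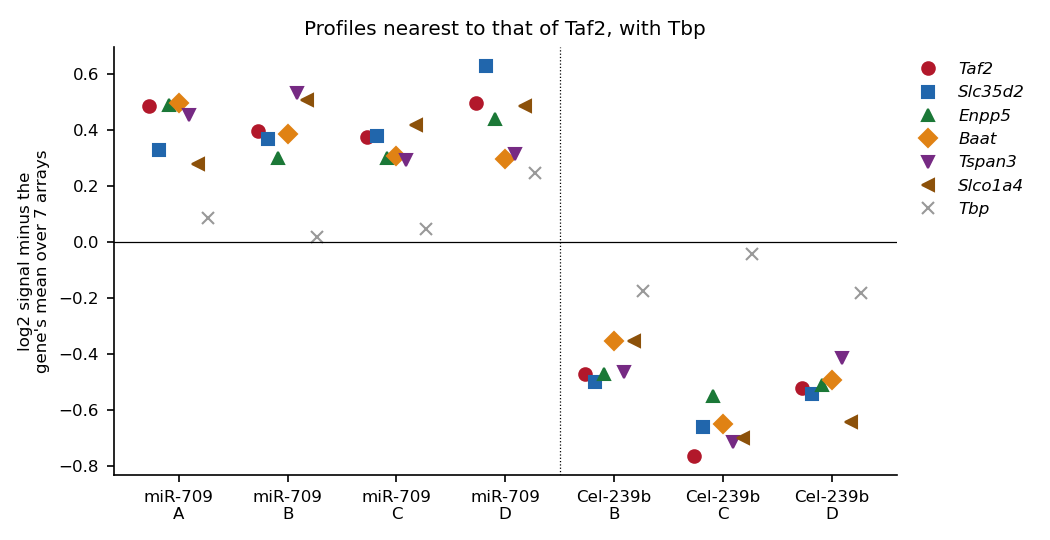
Log2 signal minus the gene's own mean over the 7 arrays (y axis) on each array (x axis, miR-709 left of the dotted line, Cel-239b right of it) for *Taf2*, the 5 genes nearest to it and *Tbp*. The nearest genes and *Taf2* stand 0.28 to 0.63 above their means on the miR-709 arrays and 0.35 to 0.76 below them on the control arrays, whereas *Tbp* stays within 0.25.

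*Taf2* lies on chromosome 15, and the other members are on 8 other chromosomes, with *Tbp* and *Taf8* both on chromosome 17. In the order of the RefSeq table (GRCm38.p6), the measured genes beside *Taf2* were *Mal2* and *Ccn3* on one side and *Dscc1* and *Gm9920* on the other. *Mal2*, a membrane protein of transcytosis, had 10.77, 10.84, 10.70 and 10.78 with miR-709 against 10.38, 10.23 and 10.17 with Cel-239b. It rose by 0.51 (SE 0.07, limma adjusted p = 0.00352, 0.00107 to 0.0606 over the alternatives), and kept its call with any array left out. The other 3 neighbours were dim on all arrays, with mean signals of 3.80 (*Ccn3*), 2.94 (*Dscc1*) and 4.30 (*Gm9920*), and did not pass (differences 0.07, -0.10 and -0.12, adjusted p = 0.753, 0.667 and 0.536).

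Markers of the cells and of the arrays moved with the treatment in part. The counts of calls in these lists stand beside 1.81% of all genes called higher and 1.47% called lower. The 9 hepatocyte markers were all well expressed, with mean signals of at least 6, and 3 of them were higher with miR-709: *Hnf4a* (0.57, limma adjusted p = 0.00104), *Tat* (0.62, adjusted p = 0.00763) and *Cps1* (0.68, adjusted p = 0.0136). Their summed log2 signal was 102.03 to 103.18 with miR-709 and 100.51 to 101.10 with Cel-239b. The other 6 were not called and lay between -0.18 (*Apob*) and 0.07 (*Serpina1c*), and the median of the 9 was 0.03. The 4 cholangiocyte markers measured summed to 25.32 to 26.81 with miR-709 and 27.37 to 28.17 with Cel-239b (*Krt19* called lower, -1.23). *Krt19* had 8.97, 8.73, 7.91 and 7.79 with miR-709 against 9.71, 9.50 and 9.53 with Cel-239b, lowest on arrays C and D. The other 3 were not called, with *Krt7* at -0.29, *Sox9* at -0.30 and the dim *Epcam* at 0.09. Of the 4 cholangiocyte markers, 3 were at an unadjusted limma p under 0.05 (15% of all genes), and the median was -0.30. The 6 stellate cell markers summed to 29.98 to 30.80 with miR-709 and 31.77 to 32.19 with Cel-239b. *Acta2* was called lower (-1.34), and the other 5 were not called and lay between -0.26 (*Reln*) and 0.10 (*Des*). The sums of 5 endothelial markers (24.28 to 24.59 with miR-709, 23.98 to 24.73 with Cel-239b) and 5 Kupffer cell and leukocyte markers (25.80 to 26.31 and 25.61 to 26.17) overlapped, with 0 called in either list. The part of these markers in the difference of *Taf2* was not tested.

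Of the interferon-stimulated genes, 6 were measured and 0 were called, where 3.28% of all genes were called in either direction. The mean of the 6 stood 1.24 and 1.20 above the control mean on miR-709 arrays C and D but -0.19 and -0.13 from it on arrays A and B. *Taf2* did not follow that split, at 1.07, 0.98, 0.96 and 1.08 above its control mean on arrays A, B, C and D. Without arrays C and D its difference was 1.03.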

How the data were processed

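RNA of mouse hepatocytes was hybridized to 7 Affymetrix Mouse Gene 1.0 ST arrays (4 of miR-709, 3 of Cel-239b), grouped by the sample titles. The deposited log2 signals per probe set were made by the authors in Partek with RMA, which corrects the background, brings the arrays to a common distribution and combines the probes of a set (versions not given in the sources used here). RMA draws extreme signals together, and raw scans were not used here. Of 28853 probe sets, 21789 had 1 gene symbol and were kept, and the brightest of a gene was used, which left 19938 genes. No pair of arrays was identical.

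Groups were compared with limma (3.58.1, R 4.3.3; 2-sided moderated test, with Benjamini-Hochberg adjustment across the 19938 genes and calls at an adjusted p under 0.05). The fit was tested on simulated data. SE and 95% intervals are from the same fit. The SE of the excess of *Taf2* over another member is instead from per-array differences between the genes, with an ordinary pooled variance. The alternatives tried were the methods' t-test (the 1-way analysis of log2 signals that the methods name), limma-trend, every probe set kept or averaged by gene, mean signals of at least 5 or 6, further quantile, cyclic loess or median scaling, array weights, a replicate block and each array left out.

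Members and lists were chosen with earlier results of these data known, the lists from general knowledge of the complexes. Named were all members, called genes of each list (up to 4), the 5 profiles nearest to *Taf2* and 2 measured genes on each side of it. Promoter windows and gene order are from RefSeq tables.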

Additional observations from a re-analysis of the deposited data

Results flagged for a closer look

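Among the 25 genes that the rule named, 2 had a miR-709 array that stood apart from the other 3, and chance gives about 1 such group in 20. *Taf5* was 5.34 on miR-709 array D, with the nearest of the others at 5.10, so that the gap took up a share of 0.889 of the group's range. *Slc35d2*, the gene nearest to *Taf2* in profile, was 8.39 on the same array, with the nearest at 8.14 (a share of 0.833). The 3 Cel-239b arrays were too few for this check.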

How the results depend on the processing

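No count of calls for the other TFIID subunits and paralogs moved under any alternative. The count for the members (1 higher, 0 lower) did not move either. *Taf2* was chosen for its increase, and the other members with these arrays in view. Leaving out miR-709 arrays C and D was chosen after seeing the data.

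Over all genes (361 higher, 293 lower), the methods' t-test called 113 and 113, the filter at a mean signal of at least 6 called 555 higher, the replicate block called 180 higher, leaving out 1 array called 180 to 294 higher and 181 to 244 lower, and without C and D 76 and 92 were called. SAGA (1 higher, 0 lower) had 2 higher with limma-trend, 0 higher and 1 lower with the t-test, 3 higher and 1 lower at a signal of at least 6, 0 higher with the replicate block, 0 to 1 with an array left out and 0 without C and D. The other TBP factors (0 lower) had 1 and 2 lower at signals of at least 5 and 6, and 0 to 1 with an array left out. The other general factors (1 higher) had 0 with the t-test and without C and D, and 0 to 1 with an array left out. RNA polymerase II (0) had 1 higher with limma-trend, the mean of probe sets, both signal filters and median centring, and 0 to 1 higher or lower with an array left out. Mediator (2 higher, 2 lower) had 0 lower with the t-test, the replicate block and without C and D (where 1 was higher), 1 lower with array weights and 1 to 2 lower with an array left out. The cause was not tested.

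The letters shared by the treatments gave no pairing: deviations of same-lettered arrays correlated at 0.03 (B), 0.00 (C) and 0.09 (D). Other scalings moved the median of all genes by under 0.02. The 95% intervals of *Tbp*, *Taf1* and *Taf5* have lower bounds of 0.00 to 0.07, and the signals of *Taf7* and *Taf9b* lie at or below the array medians.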

Other observations

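A probe set that the annotation assigns to both *Ak6* and *Taf9*, and that was left out of the gene table for that reason, had log2 signals of 7.63, 7.85, 7.71 and 7.72 with miR-709 and 7.75, 7.49 and 7.60 with Cel-239b, a difference of 0.11 with overlapping arrays.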
